A study of Homo sapiens with 2 samples.

Results

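The genes described are 10 members of the Hippo pathway, chosen by symbol from the 23709 gene symbols of a table of expression levels in the human line Caco-2, which derives from a colorectal adenocarcinoma and can take on enterocyte-like features. All 10 were found, each with 1 protein-coding RefSeq record, and all 10 passed the filter on low values. They fall into 5 genes named as targets of the coactivator YAP (CYR61, CTGF, ANKRD1, AMOTL1 and AMOTL2) and 5 pathway components (YAP1, WWTR1, TEAD1, LATS1 and LATS2). The first library, RNC-mRNA, was made from poly(A) RNA recovered with ribosome-nascent chain complexes, and the second, mRNA, from poly(A) RNA of total RNA. Both came from cells grown in DMEM with fetal bovine serum, penicillin/streptomycin and ciprofloxacin, and the labels name no treatment and no culture density. There is 1 library of each kind, so every difference describes this pair of libraries, with no replicate check and no p-value.

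In the Hippo pathway, the kinases MST1 and MST2 (genes STK4 and STK3) activate LATS1 and LATS2, which phosphorylate the coactivators YAP and TAZ and keep them out of the nucleus. Unphosphorylated YAP and TAZ enter the nucleus, bind the TEAD transcription factors and switch on genes such as CTGF and CYR61. In the intestinal epithelium the pathway is known for its part in growth and in repair after injury. Serum, low cell density and a stiff substrate are known to activate YAP and TAZ. Several members sit on both sides of the pathway, since LATS2 and AMOTL2 are themselves YAP targets and angiomotin family proteins bind YAP.

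The library totals were put at 11083302 reads for RNC-mRNA and 9640364 for mRNA. Both were inferred from the deposited RPKM values (reads per kilobase of record scaled to the library total). Levels are RPKM and so are scaled by record length. Intervals are exact 95% intervals from the reads behind a value and cover counting error only. They treat reads as independent, so they are too narrow where reads are PCR copies of the same molecule. The translation ratio of a gene is the log2 of its level in RNC-mRNA over that in mRNA, with 0.1 RPKM added to both, minus the median over the 13402 genes with a mean of at least 1 RPKM, here called expressed genes. A relative ratio of at least 1, which is 2-fold above the median gene, served as a threshold of size, since no test is possible. Markers of the cell line were present: 7 of 8 epithelial markers reached 1 RPKM in each library, with a summed level of 3594 RPKM in RNC-mRNA and 3406 RPKM in mRNA. The exception was KRT20, a keratin of differentiated enterocytes, at 0.050 RPKM in RNC-mRNA and 0.977 RPKM in mRNA. All 5 fibroblast markers also reached 1 RPKM in each library, with a summed level of 41.8 RPKM in RNC-mRNA and 71.6 RPKM in mRNA. Of the leukocyte markers 1 of 3 (CD14) and of the endothelial markers 1 of 3 (PECAM1) reached 1 RPKM in each library, and no marker of these lists was at 0. The summed leukocyte level was 4.11 RPKM in RNC-mRNA and 4.10 RPKM in mRNA, and the summed endothelial level was 2.04 RPKM in RNC-mRNA and 4.76 RPKM in mRNA. The part of other cell types in the results below was not tested.

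All 10 genes had a relative translation ratio above that of the median gene, from 0.09 for AMOTL1 to 2.09 for CYR61. In each library YAP1 had the highest level of the 10 genes and ANKRD1 the lowest. At least 2-fold above the median gene were 2 of the 10, CYR61 and ANKRD1, beside 1.37% of all expressed genes and 1.24% of those whose mean level lies within the range of the 10. None of the 10 lay 2-fold below it, beside 11.8% of expressed genes and 9.25% within that range of level. At a 1.5-fold threshold, 6 of the 10 lay above and 0 below, beside 7.44% and 19.7% of expressed genes. Ratios at or above percentile 90 of expressed genes were found for 7 of 10 genes (3 targets and 4 components), beside 10% of all expressed genes by construction. In a bulk library, fewer cells holding an mRNA and less of that mRNA per cell cannot be told apart.

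The promoters of 3 target genes are shown because they carry the sequence GGAATG, the core of the element bound by TEAD factors. Each is the 250 bases before a RefSeq start on build GRCh38.p14, 5′ to 3′ along the gene, with the matches on either strand in capitals.
CTGF (CCN2), chr6:131951373-131951622, minus strand: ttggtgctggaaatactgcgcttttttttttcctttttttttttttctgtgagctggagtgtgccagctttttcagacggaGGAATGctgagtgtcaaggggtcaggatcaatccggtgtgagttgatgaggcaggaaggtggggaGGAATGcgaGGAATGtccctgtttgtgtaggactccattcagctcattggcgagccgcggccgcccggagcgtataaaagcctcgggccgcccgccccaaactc
ANKRD1, chr10:90921088-90921337, minus strand: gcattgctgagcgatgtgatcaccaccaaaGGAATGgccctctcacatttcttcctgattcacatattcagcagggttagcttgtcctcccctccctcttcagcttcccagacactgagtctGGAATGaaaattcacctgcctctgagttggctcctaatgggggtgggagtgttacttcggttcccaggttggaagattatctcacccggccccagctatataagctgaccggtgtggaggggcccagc
AMOTL2, second listed start, chr3:134374448-134374697, minus strand: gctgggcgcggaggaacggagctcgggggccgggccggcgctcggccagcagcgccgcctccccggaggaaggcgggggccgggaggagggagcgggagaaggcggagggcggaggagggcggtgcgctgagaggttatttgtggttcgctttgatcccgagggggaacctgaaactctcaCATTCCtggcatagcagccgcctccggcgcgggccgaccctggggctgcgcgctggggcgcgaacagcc
The CTGF promoter held 3 matches, beginning 169, 104 and 95 bases before the start, and none of them overlapped. ANKRD1 held 2, beginning 220 and 128 bases before the start, and this AMOTL2 start held 1 on the opposite strand, where the capitals read CATTCC. Of 35116 RefSeq promoters searched from 250 bases before to 50 after a start, 14% held at least 1 match on either strand, 1.37% at least 2 and 0.128% at least 3. Among the components, YAP1 held 1 match 162 bases before its start and LATS2 held 1 match 10 bases after its start. The other AMOTL2 start and the starts listed for AMOTL1, WWTR1 and LATS1 held none in this window. Entries were matched for 8 of the 10 genes, and CYR61 and TEAD1 were not matched. A match describes these letters and is not evidence of binding.

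CYR61, which encodes the secreted matricellular protein CCN1, had the highest ratio of the 10 genes. Its level was 9.48 RPKM in the RNC-mRNA library (241 reads, interval 8.32 to 10.8) and 2.22 RPKM in the mRNA library (49 reads, interval 1.64 to 2.93). The RNC-mRNA level was 4.28 times the mRNA level (interval 3.14 to 5.94), and the intervals of the levels lay far apart. The relative ratio of 2.09 (interval 1.69 to 2.61) was exceeded by 14 of the 13402 expressed genes. CYR61 was the one gene of the 10 whose whole interval lay beyond the 2-fold line.

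CTGF encodes the matricellular protein CCN2, a close relative of CCN1 and a standard YAP reporter gene. It had 2.73 RPKM in RNC-mRNA (71 reads, interval 2.14 to 3.45) and 1.59 RPKM in mRNA (36 reads, interval 1.12 to 2.21), so the intervals of the levels overlapped slightly. Its relative ratio was 0.78 (interval 0.22 to 1.44), above the median gene and with an interval that spans the 2-fold line. The RNC-mRNA to mRNA fold of CYR61 was 2.49 times that of CTGF (interval 1.45 to 4.25). The level of CYR61 was 3.47 times that of CTGF in RNC-mRNA and 1.39 times in mRNA.

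ANKRD1, which encodes an ankyrin repeat cofactor known from the heart and from YAP reporter assays, had the lowest level of the list. It had 2.65 RPKM in RNC-mRNA (58 reads, interval 2.01 to 3.43) and 1.05 RPKM in mRNA (20 reads, interval 0.642 to 1.62). Its relative ratio of 1.30 was 2.45-fold above the median gene, but the interval from 0.62 to 2.18 reached below the 2-fold line. With a pseudocount of 1 RPKM in place of 0.1 the ratio was 0.87, under the 2-fold line. The folds of ANKRD1 and CTGF differed by a factor of 1.47 (interval 0.736 to 2.98) and those of CYR61 and ANKRD1 by a factor of 1.70 (interval 0.883 to 3.17). Both intervals hold 1, so at this depth no difference in fold was detectable within either pair. In sum, CYR61, CTGF and ANKRD1 made up 14.9 RPKM in RNC-mRNA and 4.86 RPKM in mRNA.

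The angiomotin-like scaffolds AMOTL1 and AMOTL2, which hold YAP at junctions and in the cytoplasm, had smaller ratios than the other targets. AMOTL2 had 56.2 RPKM in RNC-mRNA (3103 reads) and 45.2 RPKM in mRNA (2170 reads), a relative ratio of 0.35 (interval 0.27 to 0.43). Its reads were taken at a length of 4984 nt, against 4488 nt for the matched reference transcript. AMOTL1 had 12.6 RPKM in RNC-mRNA (1258 reads) and 12.1 RPKM in mRNA (1052 reads), a relative ratio of 0.09. The interval of AMOTL1, from -0.02 to 0.21, included the median gene. The third family member, AMOT, had 20.1 RPKM in RNC-mRNA and 12.5 RPKM in mRNA, a relative ratio of 0.72 (interval 0.61 to 0.85). The fold of AMOT was 1.55 times that of AMOTL1 (interval 1.38 to 1.75), and the fold of AMOTL2 was 1.20 times that of AMOTL1 (interval 1.08 to 1.32). AMOT and AMOTL1 had nearly the same level in mRNA, where AMOT was at 1.03 times AMOTL1, whereas in RNC-mRNA it was at 1.59 times AMOTL1.

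**Figure D1:**
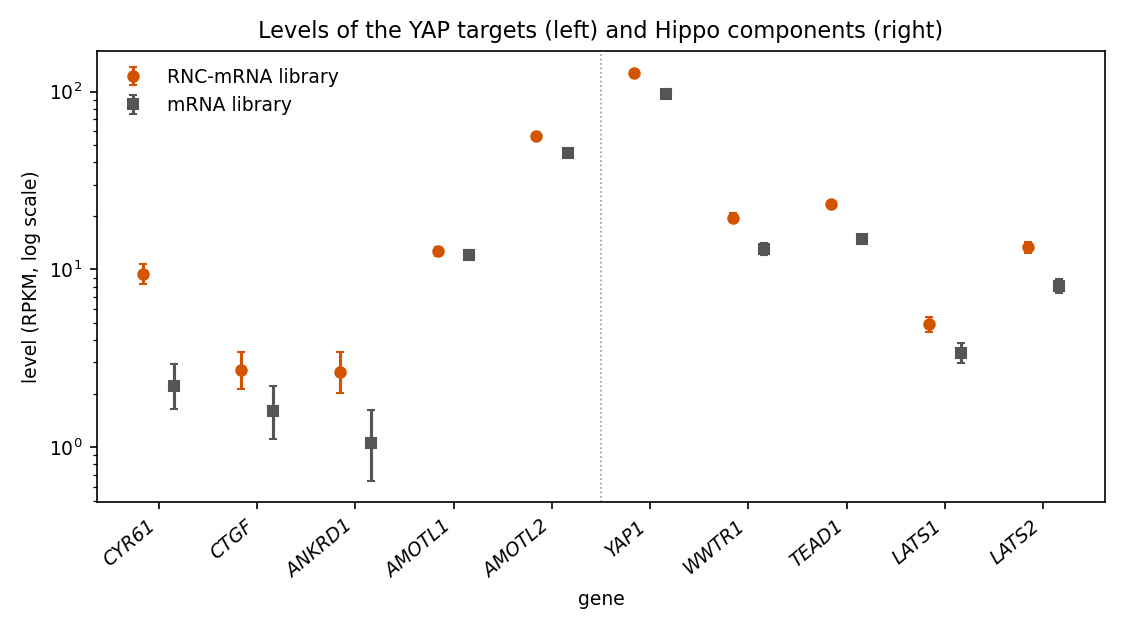
Levels of the 10 genes in RPKM on a log axis, in the RNC-mRNA library (circles) and the mRNA library (squares), targets left of the dotted line and components right of it. Bars are exact 95% counting intervals. All 10 RNC-mRNA levels lie above the mRNA level of the same gene, with the widest gap for CYR61 (9.48 RPKM in RNC-mRNA and 2.22 RPKM in mRNA) and the narrowest for AMOTL1 (12.6 RPKM in RNC-mRNA and 12.1 RPKM in mRNA).

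The components had ratios close to one another, from 0.43 for YAP1 to 0.75 for LATS2. YAP1, the coactivator itself, was the most abundant of the 10 genes, with 127 RPKM in RNC-mRNA (7602 reads) and 97.0 RPKM in mRNA (5036 reads). Its relative ratio was 0.43 (interval 0.38 to 0.48). By level it ranked 546th of all 23709 symbols in RNC-mRNA and 673rd in mRNA. WWTR1, which encodes the YAP paralog TAZ, had 19.5 RPKM in RNC-mRNA (1105 reads) and 13.1 RPKM in mRNA (644 reads), a relative ratio of 0.61 (interval 0.47 to 0.76). No reference transcript was matched to its record, so these are the reads at the shortest length, 5113 nt, that makes both values whole. YAP1 was thus 6.53 times WWTR1 in RNC-mRNA and 7.42 times WWTR1 in mRNA. The fold of YAP1 was 0.880 times that of WWTR1 (interval 0.792 to 0.977), a difference larger than the counting error alone.

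TEAD1, a DNA-binding partner of YAP and TAZ, had 23.2 RPKM in RNC-mRNA (2425 reads) and 14.7 RPKM in mRNA (1338 reads), a relative ratio of 0.69 (interval 0.60 to 0.79). These reads are those at a record length of 9416 nt, whereas the reference transcript matched to the record has 2544 nt, so the reads and the interval are less certain than the RPKM. TEAD1 was not the leading TEAD gene of these cells. TEAD4 had 67.2 RPKM in RNC-mRNA and 56.6 RPKM in mRNA (ratio 0.29), and TEAD3 had 57.5 RPKM in RNC-mRNA and 53.2 RPKM in mRNA (ratio 0.15). TEAD2 had 25.2 RPKM in RNC-mRNA and 34.6 RPKM in mRNA, and its ratio of -0.42 (interval -0.58 to -0.26) lay on the other side of the median gene. TEAD1 made up 13.4% of the summed TEAD level in RNC-mRNA and 9.26% in mRNA, and TEAD2 made up 14.6% in RNC-mRNA and 21.8% in mRNA. The fold of TEAD1 was 2.17 times that of TEAD2 (interval 1.91 to 2.46), 1.46 times that of TEAD3 (interval 1.33 to 1.61) and 1.33 times that of TEAD4 (interval 1.19 to 1.48).

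The LATS kinases, which phosphorylate YAP and TAZ, had low to moderate levels. LATS2 had 13.3 RPKM in RNC-mRNA (816 reads) and 8.07 RPKM in mRNA (431 reads), a relative ratio of 0.75 (interval 0.59 to 0.93). LATS1 had 4.92 RPKM in RNC-mRNA (410 reads) and 3.39 RPKM in mRNA (246 reads), a relative ratio of 0.56 (interval 0.34 to 0.81). Their folds differed by a factor of 1.14 (interval 0.928 to 1.39), which holds 1. LATS2 was 2.70 times LATS1 in RNC-mRNA and 2.38 times LATS1 in mRNA. Over the 10 pairs of genes compared in all, the interval excluded 1 for 7 and held 1 for 3, without adjustment for the number of pairs. The share among other pairs of expressed genes was not computed, so this count shows nothing particular to these genes.

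Set against each other, the targets had a median relative ratio of 0.78 and the components 0.61, a difference of 0.17 on the log2 scale. The order of these medians is not stable. It was -0.02 with a pseudocount of 1 RPKM and -0.30 with a mean of at least 5 RPKM, which removes CTGF, ANKRD1 and LATS1. With AMOTL1 and AMOTL2 counted among the components instead it was 0.73, and with LATS2 among the targets 0.18. Within these 10 genes the spread also differed. The targets ran from 0.09 to 2.09 and held both the highest and the lowest ratio of the 10 genes, whereas the components ran from 0.43 to 0.75. The upper end of the targets rests on CYR61, CTGF and ANKRD1, with 49, 36 and 20 reads in mRNA. The narrow range is that of the 5 components chosen, since other upstream genes of the pathway ran from -1.73 (MAP4K1) to 0.80 (WWC2). The summed level of the targets was 83.7 RPKM in RNC-mRNA and 62.2 RPKM in mRNA (1.35-fold), and that of the components was 188 RPKM in RNC-mRNA and 136 RPKM in mRNA (1.38-fold).

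**Figure D2:**
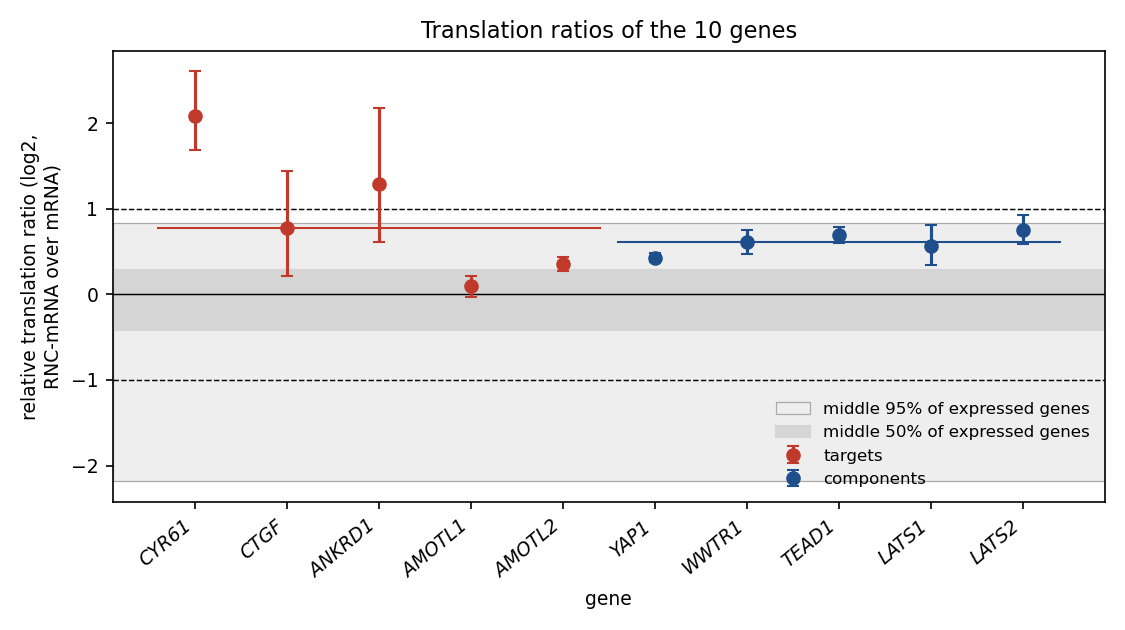
Relative translation ratio (log2, RNC-mRNA over mRNA, median gene at 0) of the 5 targets and the 5 components, with exact 95% counting intervals. Coloured lines are the group medians (0.78 for targets, 0.61 for components), dashed lines mark 2-fold, and grey bands hold the middle 50% and 95% of expressed genes. CYR61 at 2.09 stands above the other 9 genes, and AMOTL1 at 0.09 is the lowest.

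By level, the order in RNC-mRNA was YAP1, AMOTL2, TEAD1, WWTR1, LATS2, AMOTL1, CYR61, LATS1, CTGF and ANKRD1. In mRNA it was YAP1, AMOTL2, TEAD1, WWTR1, AMOTL1, LATS2, LATS1, CYR61, CTGF and ANKRD1. Thus LATS2 stood before AMOTL1, and CYR61 before LATS1, in RNC-mRNA alone. In RNC-mRNA the counting intervals of neighbours overlapped for LATS2 with AMOTL1 and for CTGF with ANKRD1. In mRNA they overlapped for TEAD1 with WWTR1, WWTR1 with AMOTL1, CYR61 with CTGF and CTGF with ANKRD1. CYR61 stood at percentile 51.0 of expressed genes by level in RNC-mRNA and at percentile 10.8 in mRNA.

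The 3 targets with the highest ratios were also the 3 genes of lowest level in mRNA, so values for genes of like mean level are given beside them. These genes are matched on the mean of both libraries and not on the mRNA level. By mean level LATS1 (4.16 RPKM) lay below CYR61 (5.85 RPKM). Among the 3431 expressed genes with a mean between those of ANKRD1 and CYR61, the median relative ratio was -0.19, and 38.2% lay above the median of all expressed genes. At least 2-fold above it were 2.07% of these genes and 19.4% were at least 2-fold below. The share 2-fold above is larger than the 1.37% of all expressed genes. The part of low level in the ratios of CYR61, CTGF and ANKRD1 was not tested.

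**Figure D3:**
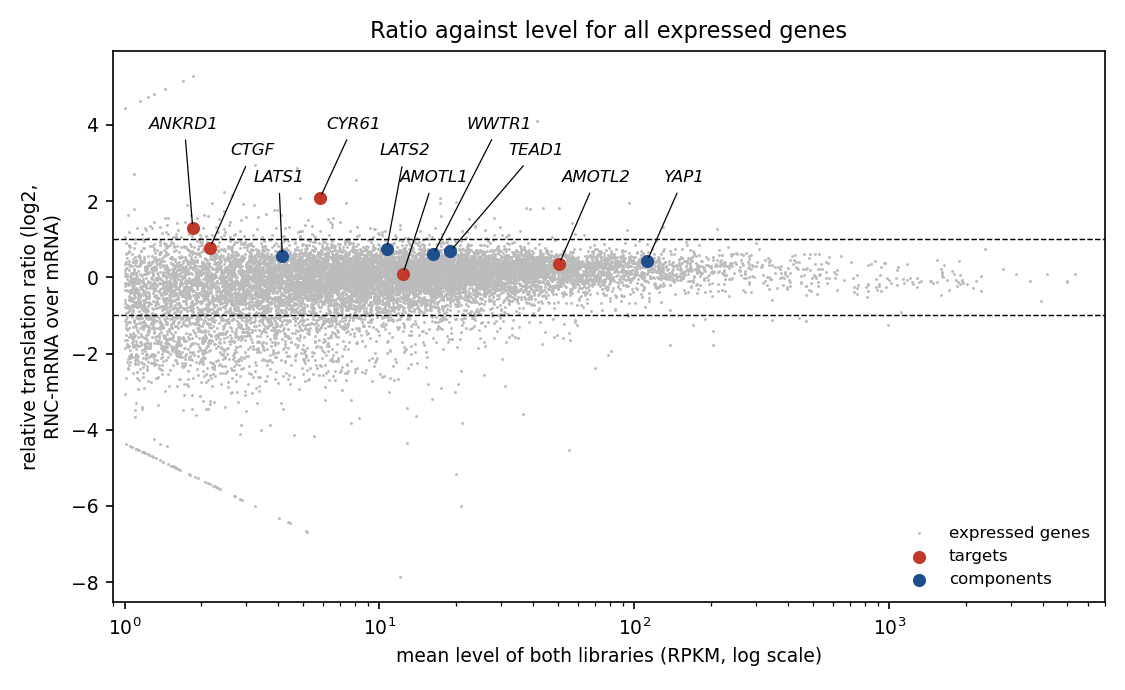
Relative translation ratio (log2, RNC-mRNA over mRNA) against mean level of both libraries (RPKM, log axis) for 13402 expressed genes (grey) and the 10 genes (coloured and named). Dashed lines mark 2-fold; CYR61 at 2.09 and ANKRD1 at 1.30 lie above the upper line, and YAP1, with 127 RPKM in RNC-mRNA and 97.0 RPKM in mRNA, is furthest right.

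The rest of the pathway was described by 7 gene lists that hold 84 genes, all of them in the table, of which 73 were expressed. Of the 63 expressed genes other than the 10, 43 lay above the median gene (50% of all expressed genes do by construction). At least 2-fold above it were 0 of the 63, beside 1.37% of all expressed genes, so this 0 is near that share. At least 2-fold below it was 1 of the 63, beside 11.8% of all expressed genes. The median relative ratio of the 63 was 0.21, against 0 for all expressed genes. The core kinase cassette, LATS1 and LATS2 included, had 7 of 7 members above the median gene, with a median of 0.22. Without those 2 genes it had 5 of 5, with a median of 0.16. MOB1A, an activator of LATS, was the highest of them at 36.7 RPKM in RNC-mRNA and 21.6 RPKM in mRNA (0.80), and its paralog MOB1B was the lowest (0.01). STK4, which encodes MST1, had 15.2 RPKM in RNC-mRNA and 14.3 RPKM in mRNA (0.12).

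Upstream regulators, which feed signals from junctions and polarity into the kinases, were split, with 12 of 21 expressed members above the median gene and a median of 0.09, which is the value of AMOTL1 itself. Without AMOTL1 and AMOTL2, 10 of 19 lay above the median gene, with a median of 0.02. WWC2, a relative of the scaffold KIBRA, was highest (0.80), and the kinase MAP4K1 lowest, with 0.552 RPKM in RNC-mRNA (17 reads) and 2.13 RPKM in mRNA (57 reads), a relative ratio of -1.73 (interval -2.78 to -1.11). MINK1, an abundant MAP4K-type kinase, had 28.5 RPKM in RNC-mRNA and 43.6 RPKM in mRNA (-0.58). FAT4, an atypical cadherin, was listed at 0 in RNC-mRNA and rested on 1 read in mRNA. LATS inhibitors and subunits of the STRIPAK phosphatase complex, which counteracts MST1 and MST2, had 9 of 11 members above the median gene (median 0.15). AJUBA, a LIM protein that inhibits LATS, had 18.9 RPKM in RNC-mRNA and 11.9 RPKM in mRNA (0.71). The STRIPAK subunit STRN4 had 60.2 RPKM in RNC-mRNA and 56.1 RPKM in mRNA (0.14), and STRIP2 was the lowest (-0.90).

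Among the coactivators and their DNA-binding partners, 7 of 8 expressed members lay above the median gene (median 0.41), with TEAD2 the exception. Without YAP1, WWTR1 and TEAD1, 4 of 5 lay above it (median 0.29). The TEAD cofactor VGLL1 had 65.3 RPKM in RNC-mRNA and 47.5 RPKM in mRNA (0.50), a level between those of TEAD4 and TEAD3 in RNC-mRNA. For 14-3-3 proteins, casein kinases and F-box proteins that retain or degrade YAP, 8 of 11 lay above it (median 0.27). YWHAE, the most abundant 14-3-3 gene, had 499 RPKM in RNC-mRNA and 444 RPKM in mRNA (0.21), and YWHAQ had 232 RPKM in RNC-mRNA and 174 RPKM in mRNA (0.45). YWHAG was the highest (0.68), and SFN, the epithelial 14-3-3 gene, the lowest, with 34.9 RPKM in RNC-mRNA and 49.1 RPKM in mRNA (-0.45). Reads of the closely related 14-3-3 genes are uncertain where they could be shared.

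A signature of 22 YAP target genes, which includes 5 of the 10 genes, had 18 expressed members, 13 of them above the median gene, with a median of 0.38. The 13 expressed signature genes outside the 10 had a median of 0.21, and 8 of them lay above the median gene, beside 50% by construction. At least 2-fold above or below it were 0 of the 13, beside 1.37% and 11.8% of all expressed genes. With so few genes, counts of 0 are near these shares. IGFBP3, a secreted IGF-binding protein, had 37.6 RPKM in RNC-mRNA and 33.4 RPKM in mRNA (0.21), and the receptor tyrosine kinase AXL was lowest, with 2.84 RPKM in RNC-mRNA and 4.36 RPKM in mRNA (-0.56). After CYR61, the highest expressed signature genes were ANKRD1 (1.30) and CTGF (0.78). Of the 6 CCN family genes, CYR61 and CTGF alone reached a mean of 1 RPKM. Below that filter, WISP1 had a mean of 0.846 RPKM, with 72 reads in RNC-mRNA and 22 in mRNA. Its relative ratio was 1.36 (interval 0.84 to 2.31). The rest of the family had at most 5 reads in either library.

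**Figure D4:**
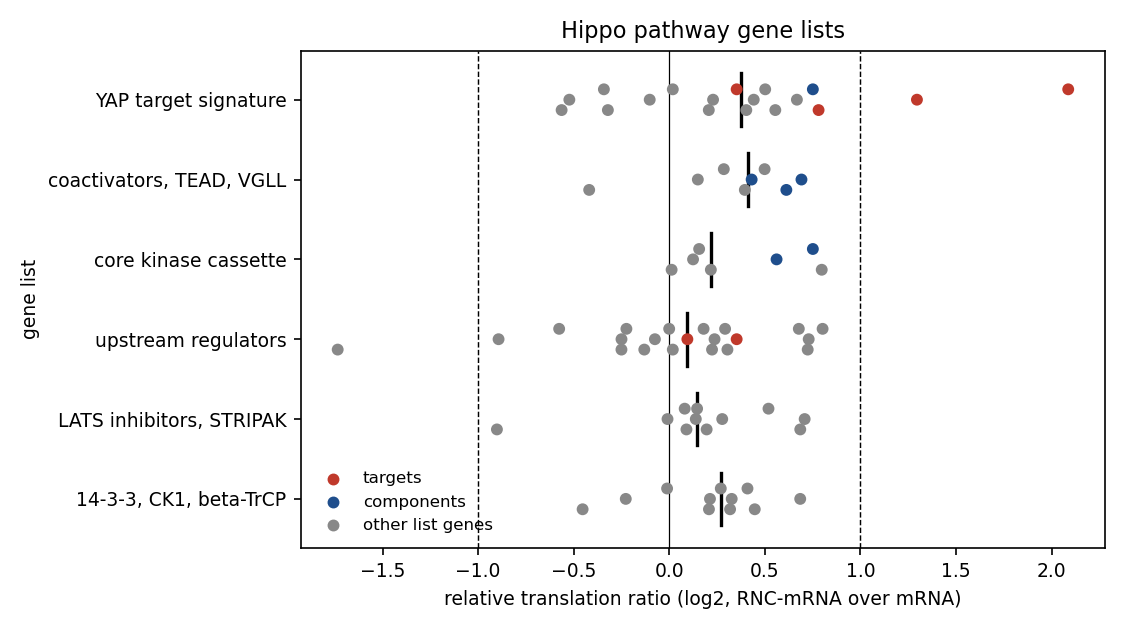
Relative translation ratio (log2, RNC-mRNA over mRNA) of the expressed members of 6 Hippo pathway gene lists, with the list median as a black bar. The 10 genes are coloured, so that a gene in several lists appears in each, and dashed lines mark 2-fold; list medians run from 0.09 (upstream regulators) to 0.41 (coactivators, TEAD and VGLL), and CYR61 and ANKRD1 lie right of the upper line.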

How the data were processed

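RPKM values for 2 poly(A) libraries, RNC-mRNA and mRNA, were computed and deposited by the authors, per the file headers, 1 RefSeq record per gene. Per the submitters' processing notes the build was hg19, while the software for mapping and counting is not given in the sources used, and strand is not named in the labels. For each library a vote of the genes, given GENCODE 29 transcript lengths, first picked a narrow range of totals. Within that range the total that turned the most values into whole reads was taken. For RNC-mRNA the chosen total did so for 2346 of the 16935 genes tried, and the runner-up total in that range for 1656. For mRNA the chosen total did so for 2594 of the 17679 genes tried, and the runner-up total in that range for 1753. Totals outside the range were not compared in this way. Most genes tried thus had no whole reads at the chosen total, so the totals are inferred. Each named gene's reads were taken at the record length nearest its reference transcript at which both values were whole reads, within rounding to 7 digits and a relative error of 2e-07, or at the shortest such length where no reference transcript matched (WWTR1 among the 10). At least 12 lengths fitted for ANKRD1 and at least 5 each for CYR61 and CTGF, so their reads rest on this choice. The length used for ANKRD1 was 1974 nt, against 1979 nt for its reference transcript. Ratios are log2((RNC-mRNA + 0.1) / (mRNA + 0.1)), minus the median over genes with a mean of at least 1 RPKM (-0.04), and understate changes of low genes; fold intervals use reads without the pseudocount. Ratio intervals are Clopper-Pearson, level intervals Poisson and intervals for pairs conditional exact (scipy 1.17.1, Python 3.11.15). Whether 1 culture gave both RNA preparations is not stated in the labels. Genes named outside the 10 are, per list, the 2 of highest mean level, the highest and lowest ratio and any at least 2-fold from the median gene. Others, AMOT, TEAD3, VGLL1, FAT4, KRT20 and WISP1, were added by name after their values were seen. The members and lists were chosen with earlier results of these data known. The recovery of the library totals was tested on simulated data in which every gene had its exact reference length. The choice of record length for each gene, on which the reads and intervals rest, was not tested. Promoter sequences are from RefSeq (GRCh38.p14); protein sequences were not used here.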

Additional observations from a re-analysis of the deposited data

How the results depend on the processing

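No paired analysis was possible because each group has 1 library. All 10 genes kept a positive relative ratio under each alternative in which they were tested. The smallest values were 0.01 for AMOTL1 and 0.27 for AMOTL2, both with a mean of at least 5 RPKM. CYR61 ran from 1.74 to 2.13 over the settings and stayed at least 2-fold above the median gene in each. The count of genes at least 2-fold above was 2, and was 1 with a pseudocount of 1 RPKM (background 0.761%), where ANKRD1 was at 0.87, and 1 with a mean of at least 5 RPKM (background 0.677%), where CTGF, ANKRD1 and LATS1 were not tested. With a 1.5-fold rule the count was 6, beside 7.44% of expressed genes. No gene was called below under any setting. The background called below ran from 5.94% with a mean of at least 5 RPKM to 19.7% with the 1.5-fold rule. With at most 10 genes tested, a count of 0 is near the lower of these shares. The difference between the medians of targets and components changed sign, as given with it above. With a mean of at least 5 RPKM the median of the upstream regulators was -0.03 in place of 0.09, and that of the core kinase cassette 0.40 in place of 0.22. Depth limits CTGF and ANKRD1 most, with 36 and 20 reads in mRNA, and the background among genes of like level was chosen after seeing the data.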
